A study of Mus musculus with 8 samples.

Results

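Of 74090 merged peaks of open chromatin in sorted medullary thymic epithelial cells (mTEC), 248 were distal peaks that stood low in the mTEC-I population and open in the other 3. They were selected on the measured values. A peak had to lie over 1000 and up to 100000 bp from its nearest transcription start site (TSS), with no repeat or CpG island in its detailed annotation, which left 39199 distal peaks. The tags of each library in merged peaks were scaled to sum to 1000000, and this unit is called scaled tags from here on. The lowest mean of mTEC-II, mTEC-III and mTEC-IV, called m, had to reach 12 scaled tags, and the mTEC-I mean had to be at most m/3. Of the 4881 distal peaks whose m reached 12, the 248 members were 5.08%.

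The cells came from the thymus of C57BL/6 mice, which was digested with Collagenase, Dispase and DNase before Percoll separation and sorting. Per the labels, all 4 were sorted as CD45- and Epcam+, mTEC-I in addition as MHCII low and Itgb4+, and mTEC-II as MHCII high. mTEC-III was sorted as Ly6D+, and mTEC-IV as MHCII low, Itgb4- and L1cam+. The assay was ATAC-seq, in which a transposase inserts adapters into open chromatin, and each population had 2 libraries. No genotype or treatment set the groups apart, and the age of the mice is not given in the sources used here. Whether replicate libraries came from separate animals is not stated, so a p-value here reflects spread between libraries alone, possibly technical spread. Each library is a bulk of sorted cells, so fewer cells with an open site and a less open site in each cell cannot be told apart.

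Open chromatin far from a TSS often marks enhancers, stretches of DNA that bind transcription factors and act on genes at a distance. In epithelia, distal sites vary between cell states more than promoters do. The thymic medulla holds epithelial cells of several states, among them keratin-rich cells with low MHC class II, mature cells that express Aire and present self antigens to developing T cells, and cells resembling epithelia of other organs. A gene named beside a peak here is the one with the nearest TSS in the authors' annotation. Nothing in these data shows that the peak acts on it.

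A genome of the mm9 build was not used here, so no sequence of a member peak is printed. Sequences near the finding came from RefSeq tables (GRCm38.p6), whose coordinates are not those of the mm9 peaks. Mir142 encodes a microRNA best known from blood cells, and it was 1 of 9 genes nearest to 2 members. Its mature strands are shown because these members and its promoter peak are described with their values, and capitals mark the seed, bases 2 to 8.
mmu-miR-142a-5p, chr11:87756867-87756887, plus strand: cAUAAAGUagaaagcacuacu
mmu-miR-142a-3p, chr11:87756903-87756925, plus strand: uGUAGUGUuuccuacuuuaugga
The seeds AUAAAGU and GUAGUGU differ, so the strands belong to different seed families.

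The 250 bases before the RefSeq start are shown for 5 genes nearest to a member whose own promoter peak differed in mTEC-I. Promoter peaks of Dock2, Kit, Orai2 and Cldn4 were lower in mTEC-I, and that of Pdlim3 was higher. The Dock2 peak lay 772 bp downstream of its TSS, in an intron, so the bases shown for Dock2 are outside it. Capitals mark every match, on either strand, to 8 motifs. These were the AP-1 site TGANTCA, the cyclic AMP response element (CRE) TGACGTCA, the E-box CACGTG, the ETS motif CCGGAAG, the RUNX motif TGTGGTT, the GATA motif AGATAA, the GC box GGGCGGG, and the NF-kB motif by its name alone. They were chosen with these sequences in view.
Dock2, chr11:34783906-34784155, minus strand: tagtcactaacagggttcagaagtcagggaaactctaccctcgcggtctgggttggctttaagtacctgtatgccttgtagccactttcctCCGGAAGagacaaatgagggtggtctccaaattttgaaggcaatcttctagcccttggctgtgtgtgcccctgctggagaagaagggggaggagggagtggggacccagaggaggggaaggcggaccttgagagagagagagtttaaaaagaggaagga
Kit, chr5:75574737-75574986, plus strand: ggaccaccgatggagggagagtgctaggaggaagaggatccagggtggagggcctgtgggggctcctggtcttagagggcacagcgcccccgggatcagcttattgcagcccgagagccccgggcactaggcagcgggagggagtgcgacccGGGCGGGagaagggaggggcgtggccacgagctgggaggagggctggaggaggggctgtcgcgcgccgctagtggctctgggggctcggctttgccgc
Orai2, chr5:136170657-136170906, minus strand: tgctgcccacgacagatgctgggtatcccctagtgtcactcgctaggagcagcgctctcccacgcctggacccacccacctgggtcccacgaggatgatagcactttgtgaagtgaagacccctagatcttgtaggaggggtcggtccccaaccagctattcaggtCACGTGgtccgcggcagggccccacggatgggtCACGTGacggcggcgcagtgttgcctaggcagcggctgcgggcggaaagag
Cldn4, chr5:134946935-134947184, minus strand: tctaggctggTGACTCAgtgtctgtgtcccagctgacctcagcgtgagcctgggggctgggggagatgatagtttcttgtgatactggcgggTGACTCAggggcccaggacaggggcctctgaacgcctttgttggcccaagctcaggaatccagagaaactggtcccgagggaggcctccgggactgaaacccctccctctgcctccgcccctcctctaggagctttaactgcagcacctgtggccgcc
Pdlim3, chr8:45885237-45885486, plus strand: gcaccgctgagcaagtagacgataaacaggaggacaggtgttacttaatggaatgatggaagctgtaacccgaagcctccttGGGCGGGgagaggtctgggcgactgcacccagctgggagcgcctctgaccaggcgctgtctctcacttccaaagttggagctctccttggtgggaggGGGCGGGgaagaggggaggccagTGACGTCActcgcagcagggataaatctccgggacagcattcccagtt
The Dock2 sequence held 1 ETS match, that of Kit 1 GC box, that of Orai2 2 E-boxes, that of Cldn4 2 AP-1 matches, and that of Pdlim3 2 GC boxes and 1 CRE. No matches overlapped. RefSeq promoters were found for 124 of the 173 member genes with a promoter peak. Of these 124, 5.65% held AP-1, 6.45% the E-box, 9.68% ETS, 0.806% CRE and 58.9% the GC box. Among 9709 genes with a promoter peak in the merged table, the shares were 4.36%, 8.56%, 12.7%, 2.82% and 44.8%, and over all 27025 RefSeq promoters 6.87%, 6.05%, 7.05%, 1.62% and 23.6%. RUNX stood in 6.45% of member genes' promoters, GATA in 2.42% and NF-kB in 9.68%. Among genes with a promoter peak these shares were 2.97%, 5.54% and 9.27%, and over all RefSeq promoters 4.46%, 10.3% and 7.01%. A match is a description of letters, not of a bound site.

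The merged peaks held 433008 to 1691720 tags per library, 8.44% to 19.7% of all tags, with the lowest share in mTEC-III. A value of 12 scaled tags rested on 5.2 tags in mTEC-III replicate 1 and on 20.3 in mTEC-I replicate 1, so single low values are coarse. The promoter peaks of 4 epithelial markers (Epcam, Cdh1, Krt8 and Krt18) summed to 205 and 212 scaled tags in mTEC-I, while mTEC-II had 208 and 174, mTEC-III had 206 and 224 and mTEC-IV had 259 and 202. None of 10 thymocyte genes, nor Ptprc (CD45), had a promoter peak in the merged table. Of 8 myeloid and dendritic genes, Cd68, Flt3 and Zbtb46 had one, and they summed to 49.7 and 62.1 in mTEC-I, while mTEC-II had 102 and 103, mTEC-III had 58.9 and 79.9 and mTEC-IV had 65.7 and 68.1. Of 6 endothelial genes 3 had a promoter peak, with sums of 14.8 and 9.39 in mTEC-I, against 15.8 to 34.2 in the other libraries. Erg, the only 1 of them tested, was called lower (-1.17 ± 0.30, limma adjusted p = 0.00683). Kdr was not lower, with 6.21 and 2.53 in mTEC-I, against 0.691 to 3.05 elsewhere. Tek had 0.593 and 0.36 in mTEC-I, against 0 to 11.2. Of 6 mesenchymal genes 2 had one, with 50.25 and 41.1 in mTEC-I, against 17.9 to 32.2, and Pdgfra was called higher (1.21 ± 0.40, limma adjusted p = 0.0252). Of 5 cortical epithelial genes 3 had one, with 137 and 136 in mTEC-I, against 85.45 to 119 elsewhere. The part of other cells in the results was not tested.

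Members were low in both mTEC-I libraries and at similar levels in the other 6. The median member had 2.96 and 3.25 scaled tags in mTEC-I, while mTEC-II had 19.4 and 20.05, mTEC-III had 21.9 and 22.2 and mTEC-IV had 20.7 and 20.8. Every member was lower in both mTEC-I libraries than in all 6 others, a count not made for other peaks. These values chose the members and are a description. With limma, which tested 58341 peaks with Benjamini-Hochberg adjustment, all 248 were also called lower in mTEC-I than the mean of the other 3. Of all peaks tested, 19.2% were called lower and 18.3% higher, and nothing is read from this count, since the rule used that contrast. The 4633 other distal peaks with m of at least 12 had medians of 17.4 and 17.0 in mTEC-I, against 19.3 to 22.2 in the other libraries.

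**Figure D1:**
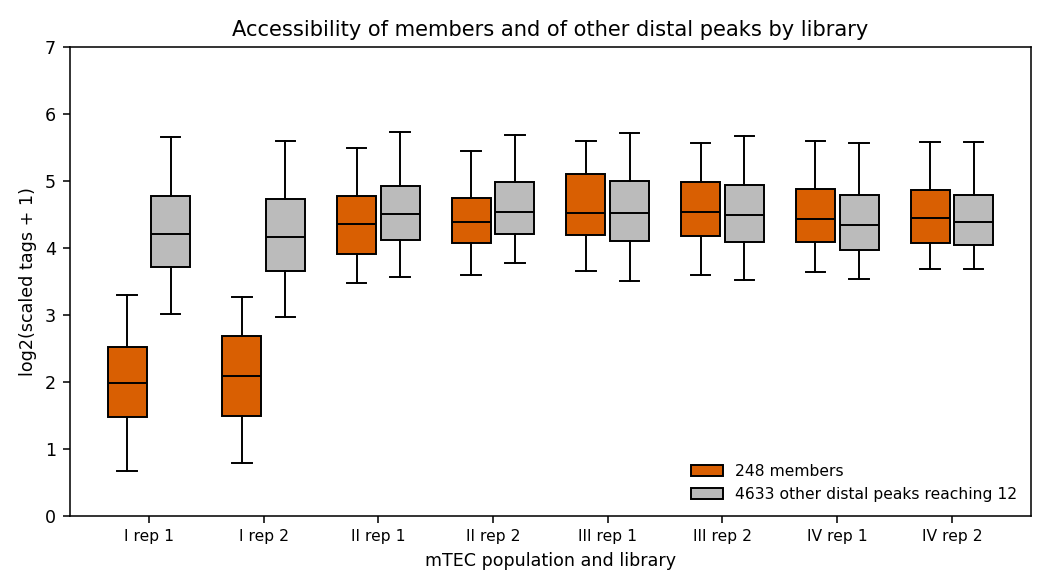
Scaled tags, as log2(value + 1), in each library, mTEC-I at the left. Boxes give the quartiles with the median, and whiskers the 5th to 95th percentile, for the 248 members (orange) and 4633 other distal peaks with m of at least 12 (grey). Members sit low only in the 2 mTEC-I libraries, as the rule required.

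The rule applied to the other populations in turn found very different numbers. Low in mTEC-I alone were 248 of 4881 peaks (5.08%), and low in mTEC-IV alone 631 of 4925 (12.8%). Low in mTEC-II alone were 7 of 3749 (0.187%) and low in mTEC-III alone 2 of 3723 (0.0537%). Distal sites missing from a single population were mostly those of mTEC-IV and mTEC-I in this table. The counts carry no test, since each rests on 1 threshold.

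The rule was also applied to 1 replicate of each population, and the result was read in the other replicate. The values read were not those of the choice, but the merged peaks came from the libraries together. The shares given for comparison include the chosen peaks and carry no test. Replicate 1 of the 4 populations gave 257 peaks, of which 252 (98.1%) were lower in mTEC-I than in each other population in replicate 2, against 49.1% of the 3975 peaks with m of at least 12 in replicate 1. The ratio of m/3 was met again by 142 (55.3%), against 5.03%. Replicate 2 gave 288 peaks, of which 266 (92.4%) were lowest in mTEC-I in replicate 1, against 40.3% of 4740, and 160 (55.6%) met the ratio, against 5.06%. A peak that meets the ratio is also lowest in mTEC-I, so the first share cannot be below the second. The 2 lists shared 109 peaks, 42.4% of the first and 37.8% of the second.

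The highest level was reached in mTEC-III by 107 members, in mTEC-IV by 89 and in mTEC-II by 52. The lowest of these 3 was mTEC-II for 110 members, mTEC-IV for 91 and mTEC-III for 47. m ranged from 12 to 47.6 scaled tags with a median of 16.4. The ratio of mTEC-I to m ranged from 0 to 0.333 with a median of 0.203. Summed over all members, the libraries held 876 and 954 scaled tags in mTEC-I, while mTEC-II had 5448 and 5482, mTEC-III had 6388 and 6156 and mTEC-IV had 6059 and 5890.

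**Figure D2:**
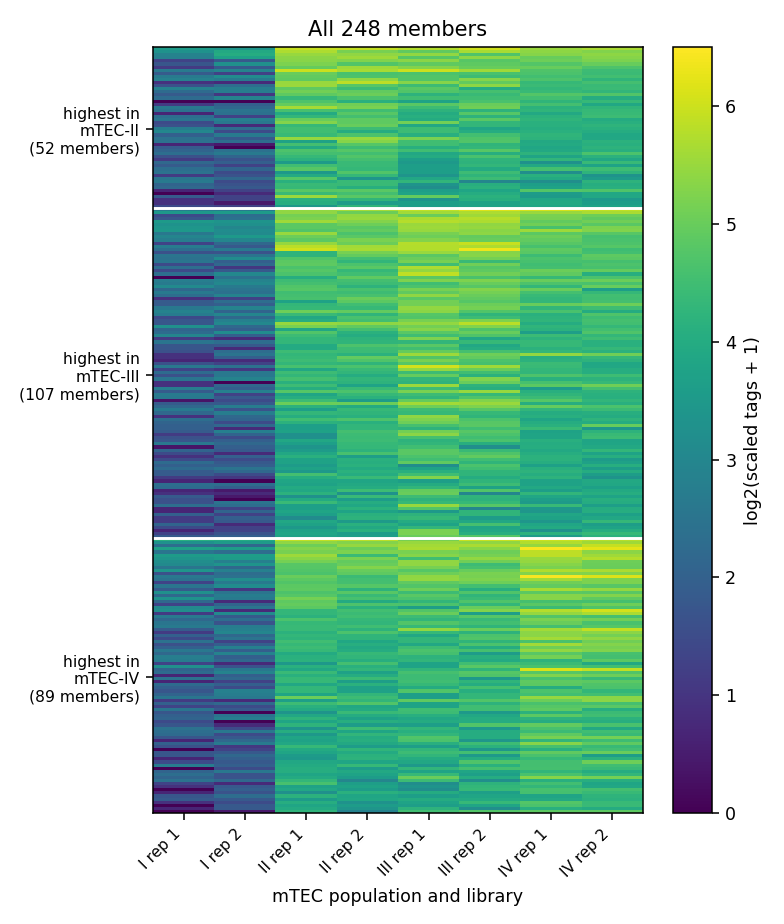
Each row is 1 of the 248 members and each column a library, mTEC-I at the left, with colour for log2(scaled tags + 1). Rows are grouped by the population with the highest mean (52 in mTEC-II, 107 in mTEC-III, 89 in mTEC-IV), and the mTEC-I columns are dark in every group.

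Of the 10 members with the highest m, the highest was at chr15:101848471-101848668 (mm9), 10078 bp upstream of Krt18, a keratin of simple epithelia. It had 16.3 and 14.8 scaled tags in mTEC-I, while mTEC-II had 58.3 and 55.9, mTEC-III had 34.6 and 60.5 and mTEC-IV had 61.6 and 54.9. Its mTEC-I libraries were about equal, and replicate 1 of mTEC-III was the lowest of the other 6. The promoter peak of Krt18, in contrast, held 20.99 and 18.05 in mTEC-I, while mTEC-II had 17.1 and 15.3, mTEC-III had 23.1 and 20.2 and mTEC-IV had 18.4 and 19.99, with a limma difference of 0.05 ± 0.24 (log2, SE; adjusted p = 0.88). So the distal site was low beside a promoter with overlapping levels.

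A member in intron 2 of Jak2, the kinase that relays cytokine signals to STAT proteins, had 8.87 and 10.8 scaled tags in mTEC-I, while mTEC-II had 42.0 and 38.5, mTEC-III had 43.9 and 41.7 and mTEC-IV had 52.8 and 46.8. It had a peak in all 8 of the authors' own lists. Stat5b, which encodes one of those STAT proteins, was nearest to 2 intronic members 27525 bp apart. The first had 5.62 and 3.61 in mTEC-I, against 14.6 to 28.1 in the other 6 libraries, and the second 2.07 and 3.25, against 12.9 to 25.8.

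A member 16395 bp upstream of Il10, an anti-inflammatory cytokine gene, had 4.73 and 3.97 scaled tags in mTEC-I, while mTEC-II had 35.0 and 36.4, mTEC-III had 35.8 and 32.7 and mTEC-IV had 57.0 and 40.7. In intron 8 of Fermt1, which encodes the integrin activator kindlin-1, a member had 1.77 and 3.97 in mTEC-I, against 31.2 to 46.6 in the others. Upstream of Atp2a3, a calcium pump of the endoplasmic reticulum, the widest member (492 bp) had 12.1 and 11.2 in mTEC-I, while mTEC-II had 38.1 and 32.2, mTEC-III had 49.7 and 39.6 and mTEC-IV had 86.4 and 74.9. Here mTEC-IV stood above the rest. The others of the 10 were nearest to Gtf2a1, E330009J07Rik, Map2k3, Dnah17 and Micall2, and their mTEC-I values ran from 3.61 to 14.1, against 28.9 to 70.9 elsewhere.

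The 10 members with the lowest ratio held almost no tags in mTEC-I. In intron 1 of Neurl1b, a ubiquitin ligase gene of the Notch pathway, no tag was found in either mTEC-I library, against 24.9 and 16.4 scaled tags in mTEC-II, while mTEC-III had 12.7 and 23.6 and mTEC-IV had 17.9 and 19.3. A floor of 3 tags over both mTEC-I libraries (0.975 scaled tags) lay 18.6-fold under the m of 18.2. Since this member was named for its low ratio, that figure is a description and not a bound. The Neurl1b member was the sole one with no tag in both libraries, while 8 members had none in replicate 1 and 7 none in replicate 2. The member in intron 2 of Prkca, a protein kinase C gene, had 0.593 and 0 in mTEC-I, against 11.5 to 18.1 elsewhere. The member 4350 bp from the TSS of Myog, a muscle transcription factor, had 0.887 and 0, against 16.3 to 31.3. Intervals and floors cover counting error only, since no molecular identifiers were recorded in the files used.

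Hdc, which encodes the enzyme that makes histamine, had a member with 0.593 and 0.36 scaled tags in mTEC-I, while mTEC-II had 22.5 and 26.4, mTEC-III had 21.9 and 18.1 and mTEC-IV had 14.7 and 16.3. A second Hdc member, 39145 bp away, had 3.25 and 1.80 in mTEC-I, against 15.2 to 32.3. Tob1, an antiproliferative gene, had a pair 1911 bp apart, both about 50 kb upstream. The one in this group held 0 and 0.36 in mTEC-I, while mTEC-II had 17.9 and 6.33, mTEC-III had 21.9 and 25.7 and mTEC-IV had 28.0 and 28.1, so its mTEC-II libraries differed from each other. Pdcd4, an inhibitor of translation, also had 2 members. The remaining 4 of the 10 were nearest to Gramd3, Adpgk, 4930406D18Rik and Ankrd33b, with 0 to 1.44 in mTEC-I, against 9.73 to 57.0 elsewhere.

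**Figure D3:**
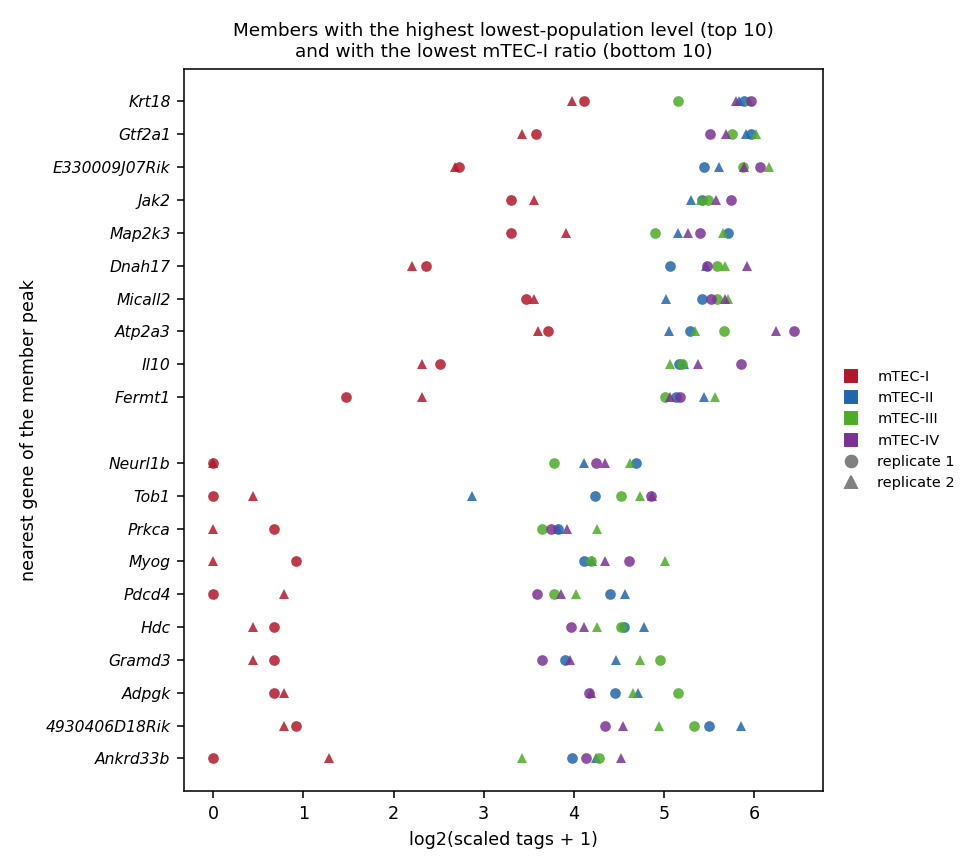
Each row is a member, named by its nearest gene, with 1 point per library on log2(scaled tags + 1), coloured by population and shaped by replicate. In all 20 rows both mTEC-I points (red) lie left of the other 6; Neurl1b has both at 0.

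At the thresholds, members just inside differed little from peaks just outside. The highest ratios inside were 0.333 near Prkag2, 0.332 near Igsf21 and 0.332 near Atp2a3, and the lowest outside were 0.334 near Vasp, 0.335 near Carns1 and 0.338 near Chrna4. Just inside on m were peaks near Grhl2, Fabp3 and Rab11fip4os2, with 12.02, 12.03 and 12.03 scaled tags. Just outside were peaks near Ccin, Nfatc3 and Znhit3, with 11.98, 11.97 and 11.95.

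No gene was nearest to 3 or more members, and the 9 with 2 (Tob1, Gm20219, Mir142, Stat5b, Rbm47, Ptprj, Plekho2, Hdc and Pdcd4) were named after their values were seen. The members spread over 239 genes. The 2 Mir142 members lay 7201 and 1340 bp upstream. The first had 5.32 and 6.5 scaled tags in mTEC-I, while mTEC-II had 62.1 and 49.6, mTEC-III had 62.4 and 46.6 and mTEC-IV had 25.3 and 21.01, so mTEC-II and mTEC-III stood above mTEC-IV with no overlap. The second had 0.887 and 1.44 in mTEC-I, while mTEC-II had 23.3 and 31.1, mTEC-III had 27.7 and 29.2 and mTEC-IV had 18.8 and 21.7. In all, 18 members lay within 50 kb of another.

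Members were more often intronic and less often upstream than other distal peaks with m of at least 12. Of the members, 140 (56.5%) were intronic and 87 (35.1%) intergenic, against 39.2% and 50.1% of the other 4633. Upstream of the nearest TSS lay 80 members (32.3%), against 45.5%. The median distance from the TSS was 16322 bp for members and 14016 bp for the others, and 69.4% against 59.9% lay over 10 kb away. Median width was 233 bp for members and 206 bp for the others. Peaks low in mTEC-IV alone had an intronic share of 46.9% and an upstream share of 44.4%. These shares carry no test.

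The authors' own peak lists came from the same tags as the rule and are a description too. In mTEC-I, 9 members (3.63%) were overlapped by at least 1 bp in replicate 1 and 12 (4.84%) in replicate 2, against 89% and 84.2% of the other distal peaks with m of at least 12. Neither mTEC-I list held 231 of the 248. Overlap in the other lists ran from 35.9% in mTEC-III replicate 1, the shallowest library in peaks, to 92.7% in mTEC-IV replicate 2, and the other distal peaks had 32.3% and 93.4% in those lists. All 6 lists held 51 members.

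Most promoter peaks of member genes did not pass the test in mTEC-I. A gene's main promoter peak was the strongest merged peak within 1 kb of its TSS, and the members' rule did not use it. Of 173 such peaks, 168 were tested with limma against the mean of the other 3 populations. In mTEC-I, 21 (12.5%) were called lower and 13 (7.74%) higher, with a median difference of -0.06 (log2). Over the main promoter peaks of all 12232 genes tested, 8.39% were called lower and 8% higher. Both mTEC-I libraries lay beyond all 6 others in 15 of the 21 and 11 of the 13, a count not made for promoter peaks of other genes. Without mTEC-I replicate 1 the counts were 8 lower and 2 higher, without mTEC-I replicate 2 they were 9 and 2, and without mTEC-IV replicate 2 the higher count was 8. The authors' scaling to total tags moved the median of all peaks to 0.46, against -0.08 with TMM. With it 8 were lower and 45 higher, so the direction of excess turned with the scaling. The shares over promoter peaks of all genes under that scaling are not given here.

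Krt222, an unusual keratin gene, had the largest called fall. Its promoter peak held 1.48 and 0.36 scaled tags in mTEC-I, while mTEC-II had 7.77 and 6.33, mTEC-III had 11.5 and 13.2 and mTEC-IV had 30.8 and 42.4. mTEC-IV was highest and mTEC-I below all others, with a difference of -3.37 ± 0.41 (log2, SE; limma adjusted p = 5.98e-05). The member 6787 bp upstream of Krt222 showed less spread outside mTEC-I, with 5.32 and 7.94 in mTEC-I, against 20.8 to 29.5.

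Dock2, a regulator of the actin skeleton best known from blood cells, had a promoter peak with 0.294 and 7.58 scaled tags in mTEC-I, while mTEC-II had 24.1 and 21.1, mTEC-III had 31.2 and 28.5 and mTEC-IV had 15.2 and 9.83. The 2 mTEC-I libraries differed widely but both lay below the rest (-2.88 ± 0.54, limma adjusted p = 0.000987), and DESeq2 did not call it. Its 250 bases before the start, printed above, hold the single ETS match. The peak lay 772 bp downstream of the TSS, in an intron, and so outside those bases. The Mir142 promoter peak held 1.48 and 0.721 in mTEC-I, while mTEC-II had 10.1 and 5.80, mTEC-III had 1.15 and 6.95 and mTEC-IV had 6.89 and 12.5 (-1.97 ± 0.59, limma adjusted p = 0.0152), with mTEC-III replicate 1 inside the mTEC-I range. Of the 3 promoter peaks of myeloid and dendritic markers, Cd68 and Flt3 were called lower in mTEC-I, by -2.52 ± 0.53 and -1.91 ± 0.35 on the log2 scale (limma adjusted p = 0.00191 and 0.00081), whereas Zbtb46 was not called (0.46 ± 0.28). The part of myeloid and dendritic cells in these values was not tested.

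Kit, which encodes the receptor of stem cell factor, was lower in mTEC-I at its promoter as well. The peak held 7.09 and 16.6 scaled tags in mTEC-I, while mTEC-II had 30.3 and 33.8, mTEC-III had 24.2 and 29.9 and mTEC-IV had 38.1 and 28.1. The difference was -1.42 ± 0.28 (limma adjusted p = 0.00132), and the call was lost without mTEC-I replicate 1. All 5 other distal peaks of Kit were called lower. The Kit member, in an exon 65810 bp from the TSS, had 4.43 and 2.53 in mTEC-I, while mTEC-II had 43.5 and 43.8, mTEC-III had 35.8 and 25.02 and mTEC-IV had 17.5 and 13.9.

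Orai2, a calcium channel gene, had a promoter peak with 17.4 and 13.4 scaled tags in mTEC-I, while mTEC-II had 43.5 and 35.9, mTEC-III had 25.4 and 36.1 and mTEC-IV had 45.02 and 34.2 (-1.20 ± 0.22, limma adjusted p = 0.00098). Cystm1 fell by 1.66 ± 0.22, Scn8a, a sodium channel gene, by 1.57 ± 0.32, and Hcar2, a receptor of niacin and hydroxybutyrate, by 1.53 ± 0.27 on the log2 scale, each with both mTEC-I libraries below all others (limma adjusted p from 0.000131 to 0.00176). Atp2a3, Gfi1b and Hmx3 were called lower too, with 1 or 2 libraries of other populations inside the mTEC-I range or below it. All 3 calls were lost with the authors' scaling and without either mTEC-I library, and that of Hmx3 also with edgeR and DESeq2. For Gfi1b and Hmx3, transcription factor genes, mTEC-IV held 20.2 and 20.7, and 14.7 and 10.8, while mTEC-II and mTEC-III ran from 1.15 to 9.24.

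At 13 genes the member was low in mTEC-I while the promoter peak of the same gene was called higher there. These were 7.74% of the 168 promoter peaks tested, near the 8% over the main promoter peaks of all genes. Pdlim3, an actin-binding gene, had a promoter peak with 40.8 and 31.4 scaled tags in mTEC-I, while mTEC-II had 6.21 and 7.39, mTEC-III had 9.24 and 6.25 and mTEC-IV had 15.2 and 13.9 (1.91 ± 0.30, limma adjusted p = 0.000329). The Pdlim3 member, 14467 bp inside the gene, had 2.07 and 1.08 in mTEC-I, while mTEC-II had 19.4 and 11.1, mTEC-III had 11.5 and 16.7 and mTEC-IV had 22.97 and 19.7. The 2 peaks of this gene thus ran in opposite directions in both mTEC-I libraries.

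Trp63, the p63 regulator of basal epithelium, also had a higher promoter peak and a low member in mTEC-I. Its promoter peak had 9.46 and 11.9 scaled tags in mTEC-I, while mTEC-II had 0 and 8.97, mTEC-III had 8.08 and 4.86 and mTEC-IV had 0.458 and 0. The difference was 2.21 ± 0.76 (limma adjusted p = 0.0308), and 6 of 16 alternatives lost the call. With the populations taken singly, it was called against mTEC-IV (3.69 ± 0.93, limma adjusted p = 0.00408). It was not called against mTEC-II or mTEC-III (limma adjusted p = 0.111 and 0.599). Of 13 other distal Trp63 peaks tested, 8 were called higher and 1 lower in mTEC-I. The Trp63 member, 49917 bp upstream of the nearest TSS in an intron, had 2.66 and 0.36 in mTEC-I, while mTEC-II had 8.55 and 20.05, mTEC-III had 20.8 and 18.1 and mTEC-IV had 13.3 and 12.5.

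Dclk1, a kinase gene used as a marker of tuft cells, had 30.1 and 24.5 scaled tags at its promoter peak in mTEC-I, while mTEC-II had 3.88 and 5.28, mTEC-III had 8.08 and 18.1 and mTEC-IV had 23.9 and 16.9 (1.33 ± 0.33, limma adjusted p = 0.00581). Its member had 3.25 and 5.77 in mTEC-I, against 11.5 to 22.1. Zfp36l2, an RNA-binding gene, rose by 1.24 ± 0.20 (limma adjusted p = 0.000432). Fam129b, Gramd3, Lpar6, Celsr1 and Rbm47 rose by 0.73 to 0.998 on the log2 scale. Leaving out either mTEC-I library ended the calls of Dclk1 and of these 5, whereas Pdlim3 and Zfp36l2 kept theirs under all 16 alternatives. Against mTEC-IV taken singly, Dclk1, Gramd3 and Lpar6 were not called (limma adjusted p = 0.526, 0.407 and 0.237). Fam129b was not called against mTEC-II or mTEC-III, nor Celsr1 against mTEC-II. Pdlim3, Zfp36l2 and Rbm47 were called higher against each population.

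**Figure D4:**
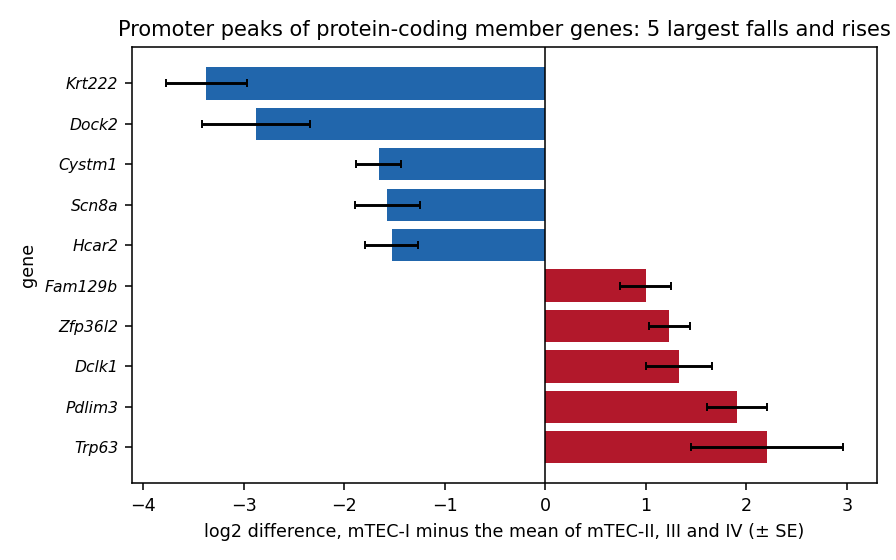
Bars give the log2 difference, mTEC-I minus the mean of mTEC-II, mTEC-III and mTEC-IV, with its SE, for promoter peaks of protein-coding member genes: the 5 largest called falls (blue) and rises (red). They run from -3.37 for Krt222 to 2.21 for Trp63.

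Other distal peaks of member genes leaned the same way as the members. Of 1160 such peaks, 931 were tested, and 307 (33%) were called lower and 142 (15.3%) higher in mTEC-I. Among all 29999 distal peaks tested that were not members, 22.3% were called lower and 21.3% higher. The median difference was -0.52 (log2), against -0.17. Of 213 genes with a tested peak, 92 had lower calls alone, 25 higher calls alone, 54 both and 42 neither. Without mTEC-I replicate 1 the counts were 134 lower and 13 higher, without mTEC-I replicate 2 they were 127 and 13, and without mTEC-IV replicate 1 the lower count was 198. With the authors' scaling they were 204 and 233, so the excess of lower over higher calls turned round. That scaling moved the median of all peaks to 0.46, against -0.08 with TMM. The shares over all distal peaks under it are not given here, so how member genes then stood against that background is left unsaid.

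Distance from a member went with the share of lower calls, a pattern chosen after values were seen. Of 135 tested distal peaks within 5 kb of a member, 58 (43%) were called lower in mTEC-I and 9 (6.67%) higher. The lower share was 31.9% of 373 at 5 to 20 kb, 27.9% of 567 at 20 to 50 kb, 27.7% of 780 at 50 to 100 kb, and 24.3% of 3950 at 100 to 500 kb. Around the other distal peaks with m of at least 12 the shares ran from 20.6% to 24.2%. Of 32 promoter peaks within 5 kb of a member, 9 (28.1%) were called lower, against 7.28% of 879 near the others. Neighbouring peaks share the libraries that chose the members, and these shares carry no test.

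**Figure D5:**
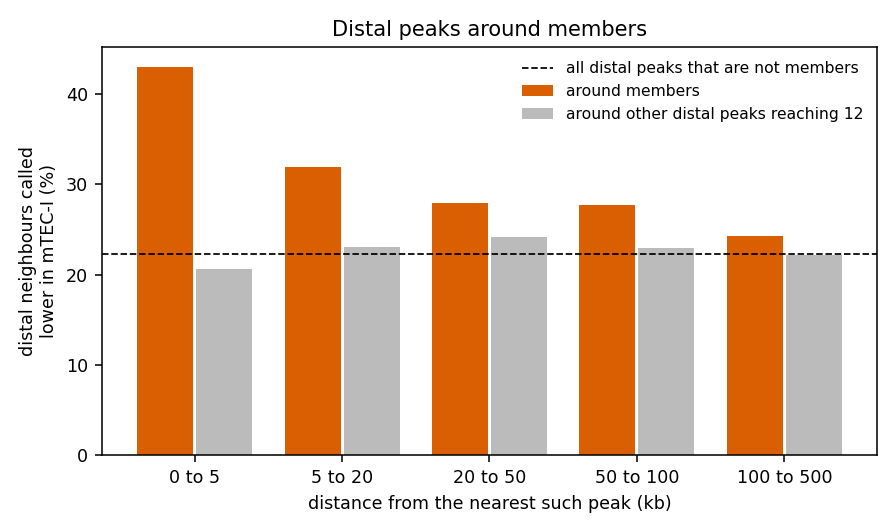
Share of tested distal peaks called lower in mTEC-I (%), by distance from the nearest member (orange) or from the nearest other distal peak with m of at least 12 (grey), members left out. The orange bars run from 43% within 5 kb to 24.3% at 100 to 500 kb; the dashed line is 22.3%, the share of all distal peaks that are not members.

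Comparisons of members among the other 3 populations are partly bound by the rule, which used the lowest of their means both for the floor on m and for the ratio. Between mTEC-II and mTEC-III, limma called 0 members, as it called 0% of all peaks tested. At an unadjusted p under 0.05 it found 20 members and 8101 of all 58341 peaks. edgeR called 1 member lower in mTEC-II, near Malat1, and DESeq2 called none, with 292 and 61 calls over all peaks. Simulated data held changes in mTEC-I alone, tested against the mean of the other 3 populations. There limma found 35 of 100 2-fold and 99 of 100 4-fold changes. Changes between mTEC-II and mTEC-III were not simulated, so how many this comparison misses is not known. The Malat1 member had 23.3 and 24.3 scaled tags in mTEC-II, while mTEC-III had 65.8 and 46.6 and mTEC-IV had 20.2 and 13.9.

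Between mTEC-II and mTEC-IV, 9 members (3.63%) were called higher and 17 (6.85%) lower in mTEC-II. All peaks tested gave 13.6% higher and 14.4% lower, and the other distal peaks with m of at least 12, which share the floor but not the ratio, gave 7.49% and 4.92%. Between mTEC-III and mTEC-IV, 8 members (3.23%) were called higher and 9 (3.63%) lower in mTEC-III, against 12.1% and 11.5% of all peaks and 6.58% and 3.89% of the others with the floor. In none of the 3 pairs was a call made for 217 members. The 2 comparisons share the mTEC-IV libraries. Counts changed when a library was left out, which also leaves fewer degrees of freedom, so these changes do not single out a library. For mTEC-II against mTEC-IV, the higher and lower counts were 3 and 9 without mTEC-II replicate 1, 5 and 8 without mTEC-II replicate 2, 3 and 4 without mTEC-IV replicate 1, and 0 and 3 without mTEC-IV replicate 2. For mTEC-III against mTEC-IV they were 3 and 5 without mTEC-III replicate 1, 3 and 1 without mTEC-IV replicate 1, and 2 and 4 without mTEC-IV replicate 2. The higher count was 4 without mTEC-III replicate 2, and the lower count 15 and 14 without mTEC-I replicate 1 or 2. The authors' scaling gave 0 and 51, and moved the median of all peaks in that pair to -0.63, against -0.08.

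The member 27883 bp upstream of Arid3b, a DNA-binding gene, was the one called most strongly lower against mTEC-IV. It had 3.25 and 5.05 scaled tags in mTEC-I, while mTEC-II had 14.0 and 18.5, mTEC-III had 18.5 and 18.1 and mTEC-IV had 68.9 and 58.6. mTEC-II was lower than mTEC-IV by -2.04 ± 0.32 and mTEC-III by -1.88 ± 0.32 (log2, SE; limma adjusted p = 0.000351 and 0.00105), and both calls held under all 16 alternatives. Members near Atp8b1, a phospholipid flippase gene, and Capg, an actin-capping gene, were also lower in mTEC-II than in mTEC-IV, by -1.70 ± 0.28 and -1.57 ± 0.34 (limma adjusted p = 0.000449 and 0.00273). Capg had 20.2 and 17.4 in mTEC-II, against 47.8 and 59.3 in mTEC-IV. A member near Cacng1 had 11.5 and 18.8 in mTEC-III, against 43.6 and 40.7 in mTEC-IV (-1.59 ± 0.34, limma adjusted p = 0.00401). Those near Scn8a and Nrip1 were lower in mTEC-III than in mTEC-IV, by -1.30 and -1.12, calls that 3 and 7 of 16 alternatives lost. That near Abhd2 was lower in mTEC-II by -1.63, a call that 10 of 16 alternatives lost.

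Higher than in mTEC-IV were members near Otulin, Kit, Mir142 and Tfap4 in mTEC-II, by 1.12 to 1.39 (log2, limma adjusted p from 0.00454 to 0.0201). All 4 calls were lost without mTEC-IV replicate 2, and all but that of Kit also without mTEC-II replicate 1. The Kit and first Mir142 members, given above, were higher in both mTEC-II libraries than in both mTEC-IV libraries, and otulin is a deubiquitinase that restrains NF-kB signalling. Otulin had 45.1 and 27.4 scaled tags in mTEC-II, against 10.6 and 13.9 in mTEC-IV. In mTEC-III, members near Malat1, Eif2ak3, Rhoc and Fosb were higher than in mTEC-IV, the first by 1.56 ± 0.31 (log2; limma adjusted p from 0.00283 to 0.0344). The Rhoc member, near a small GTPase gene of cell movement, had 53.1 and 79.2 in mTEC-III, against 28.5 and 21.3 in mTEC-IV. All 4 mTEC-III differences were lost with the authors' scaling.

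The gene lists were chosen with earlier results known, and 9 members lay near a gene of one. Among distal peaks with m of at least 12, of which 5.08% were members, claudins and tight junctions held 1 member of 12 (Cldn4), barrier regulators 2 of 13 (Cdx1 and Grhl2) and NF-kB signalling 1 of 28 (Rel). Tuft cell genes held 3 of 10 (Dclk1, Gfi1b and Hmx3) and basal keratin and adhesion genes 2 of 8 (Cd44 and Trp63). The lists of the medulla and Aire stage, of interferon and STAT, and of the Bcl2 family held 0 of 15, 0 of 7 and 0 of 8. The members near the marker genes Krt18 and Ccl25 add 2.

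Cldn4, a tight junction claudin, had a member 12338 bp upstream with 2.95 and 3.61 scaled tags in mTEC-I, while mTEC-II had 11.7 and 18.5, mTEC-III had 23.1 and 27.8 and mTEC-IV had 16.5 and 30.5. Its promoter peak had 13.0 and 16.2 in mTEC-I, while mTEC-II had 25.6 and 17.9, mTEC-III had 31.2 and 44.5 and mTEC-IV had 29.9 and 20.3 (-0.86 ± 0.25, limma adjusted p = 0.0143). Of 18 claudin and tight junction promoters tested, 6 were called lower in mTEC-I, among them Cldn7 (-2.74 ± 0.20) and Cldn3 (-1.82 ± 0.20), and 2 higher, Cldn12 and Cldn1. Median difference was -0.10 (log2), against -0.02 over promoter peaks of all genes.

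Grhl2, a regulator of epithelial junction genes, had an intronic member with 2.66 and 2.89 scaled tags in mTEC-I, while mTEC-II had 12.4 and 11.6, mTEC-III had 31.2 and 26.4 and mTEC-IV had 11.03 and 16.9, with mTEC-III above the rest. Cdx1, an intestinal homeobox gene, had a member with 3.25 and 4.33 in mTEC-I, against 14.2 to 27.1. Of 24 barrier regulator promoters, 5 were called lower, including Foxa1 (-1.38 ± 0.29) and Elf5 (-1.15 ± 0.39), and 3 higher, Klf5, Klf3 and Tfap2a. The Grhl2 promoter was not called, at 0.35 ± 0.23 (limma adjusted p = 0.251).

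The tuft cell list held members near Gfi1b (1.18 and 0.721 scaled tags in mTEC-I, against 11.7 to 40.3), Hmx3 (5.62 and 3.97, against 13.2 to 21.8) and Dclk1. Of 21 promoters tested, 10 were called lower in mTEC-I, including Il25 (-2.69 ± 0.59), Gnb3 and Trpm5, which encode a cytokine and parts of taste signalling. Another 5 were called higher, among them Dclk1 (1.33 ± 0.33). In most of the 10 lower ones the mTEC-IV libraries were far above the rest, as with Avil (0.887 and 1.08 in mTEC-I, while mTEC-II had 0 and 1.58, mTEC-III had 3.46 and 3.47 and mTEC-IV had 33.1 and 23.4). Members near tuft genes were instead open in all 3 other populations, since the rule required it.

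Of 17 basal gene promoters tested, 7 were called higher in mTEC-I by limma and 0 lower. They included Krt5 (3.34 ± 0.51), Lamb3 (2.04 ± 0.39) and Pdpn, and the median over the 17 was 0.80. Krt14, a partner of Krt5, was not called at -0.61 ± 0.26, nor was Lama3 at -0.47 ± 0.27. Against mTEC-II and mTEC-III taken singly, Krt14 was called lower in mTEC-I (limma adjusted p = 0.0152 and 0.00614). The Cd44 member had 1.77 and 5.05 scaled tags in mTEC-I, while mTEC-II had 38.1 and 28.5, mTEC-III had 33.5 and 18.8 and mTEC-IV had 16.5 and 16.3, while the promoter of this adhesion receptor gene gave 0.45 ± 0.51 (limma adjusted p = 0.521). Rel, an NF-kB subunit gene, had a member with 1.18 and 3.25 in mTEC-I, while mTEC-II had 8.55 and 21.1, mTEC-III had 40.4 and 24.3 and mTEC-IV had 12.9 and 19.7. Of 26 NF-kB promoters, Traf1 was called lower and Nfkbiz higher. Of 19 medulla and Aire stage promoters, 3 were higher and 2 lower, the lower ones being Aire (-1.17 ± 0.23) and Prdm1. The median over the 19 was -0.06, so the list had no common direction. For all these lists, the shares over the main promoter peaks of all genes were 8.39% lower and 8% higher. Of 17 interferon and STAT promoters, Irf5 was lower (-2.49 ± 0.40) and Socs3 higher, and of 7 Bcl2 family promoters 1, Bcl2, was higher.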

How the data were processed

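ATAC-seq was read in 8 libraries of 4 sorted mTEC populations, 2 each, grouped by their titles. The submitters' processing notes name HOMER, Picard 1.108, bcl2fastq 2.15.0.4 and mm9. Neither the aligner nor any shift of read ends is given in these sources. Each library's peaks were called by the authors, per the file headers, with HOMER findPeaks (fragment length 300, false discovery rate 0.001, 4-fold over 10000 bp). The deposited merged table gives a signal in tags per 10000000 total tags. Its values were whole multiples of 0.5 tags for 100% of values, within the rounding of 2 decimals, so read ends could be recovered.

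The table was rescaled to its sum in merged peaks for the rule and the printed values. Tests used limma 3.58.1 (R 4.3.3) on log2(value + 1) of TMM-scaled values over all 8 libraries, with 1 coefficient per population. Tested peaks had 10 or more tags per 10000000 in 2 or more libraries, with a Benjamini-Hochberg adjusted threshold of 0.05. This scale understates the change of low peaks. Alternatives were another pseudocount, no filter, other scalings, edgeR 4.0.16 and DESeq2 1.42.0 on recovered read ends, a replicate block, and each library left out. limma was tested on simulated data.

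The members, gene lists and tests were chosen with earlier results of these data known. Genes were named by rule: the 10 highest m, the 10 lowest ratios, genes with 3 members, list genes, peaks at the thresholds, and the 10 largest called falls and rises of promoters of protein-coding genes. One gene so named is not reported here. GC content of members was not computed, as no mm9 genome was used.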

Additional observations from a re-analysis of the deposited data

How the results depend on the processing

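The members were chosen as low in mTEC-I in these libraries, so that 248 were called lower under each pseudocount, filter, scaling and tool, and 238 to 248 with a library left out, says nothing of stability. Their number was 161 with m of at least 15, 521 with m/2, 165 with m/4 and 113 with the authors' scaling, of which 103 were among the 248; it was 227 to 288 with libraries left out. With the authors' scaling, promoter peaks gave 8 lower and 45 higher, other distal peaks 204 and 233, mTEC-II against mTEC-III 11 members higher, mTEC-II against mTEC-IV 10 lower, and mTEC-III against mTEC-IV 0 higher and 51 lower. That scaling divides by all tags, of which mTEC-III held the lowest share in peaks. edgeR called 20 promoter peaks higher, and 1, 36 and 19 members lower in mTEC-II against mTEC-III, mTEC-II against mTEC-IV and mTEC-III against mTEC-IV. A pseudocount of 4 gave 18 lower in the last pair. The cause of the edgeR and pseudocount changes was not tested.

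With a library left out, promoter counts ran from 8 to 21 lower and 2 to 18 higher, other distal counts from 127 to 327 lower and 13 to 153 higher, mTEC-II against mTEC-IV from 0 to 9 higher and 3 to 23 lower, mTEC-III against mTEC-IV from 2 to 8 higher and 1 to 15 lower, and mTEC-II against mTEC-III stayed at 0 and 0. Fewer libraries leave fewer degrees of freedom, and the lone library of a population is assumed to vary like the others. Replicate numbers did not pair the libraries (correlations of -0.014 to 0.0319 between populations). With the replicate block the counts were 19 lower and 14 higher promoter peaks, 311 and 146 other distal peaks, 8 higher and 18 lower members in mTEC-II against mTEC-IV, and 8 and 10 in mTEC-III against mTEC-IV. No single gene's difference changed sign, but the excess of lower over higher calls turned round with the authors' scaling, as given above. Of the single genes' calls under alternatives, 548 were kept and 90 were lost.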
